A study of Mus musculus with 96 samples.

Results

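A set of 10 genes known to respond to glucocorticoid hormone (of the 39179 gene identifiers in the deposited tables) was followed in mouse striatum: Zbtb16, Plin4, Hif3a, Fkbp5, Sgk1, Tsc22d3, Nfkbia, Pdk4, Cdkn1a and Sult1a1. They were taken by symbol, each matched 1 Ensembl identifier, and all 10 passed the low-count filter at both ages. The genes were selected with results of these data in view, and the difference between 2 wild-type housing cohorts is taken as the measure they were selected on, so it is given below as a description without a test. The series profiled striatal mRNA of C57BL/6 mice carrying 1 knock-in copy of the Huntington's disease gene Htt with a CAG tract labelled Q20, Q50, Q92 or Q140, and of littermate wild types, at 6 and 10 months of age. The 96 libraries form 12 groups of 8, each of 4 females and 4 males. Q20 mice were housed with 1 set of wild types and Q50 mice with another, and these are called the Q20 cohort and the Q50 cohort. Q92 and Q140 mice were each housed with mice of their own genotype and have no wild types of their own housing, so each was set against the average of the 2 wild-type groups. All knock-in mice were heterozygous and kept 1 wild-type Htt copy. In the library names the first number is mixed over the cohorts within an age and falls in a separate range at each age. The second falls in a separate range for each cohort and age, and the labels do not say what either stands for. A token starting with L in those names is also unexplained. At 10 months the Q20 and Q50 knock-in libraries share few of its values. In the knock-ins CAG length and housing go together and cannot be told apart, while the wild types of the 2 cohorts differ in housing but carry no knock-in allele.

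Glucocorticoids, corticosterone in the mouse, are released by the adrenal gland with the daily cycle and after stress. They bind the glucocorticoid receptor Nr3c1, held in the cytoplasm by Hsp90 and its co-chaperones, and the receptor then moves to the nucleus, binds DNA as a dimer and raises transcription of its targets. In brain these targets are known from neurons, glia and vessel cells alike. In tissue libraries, fewer cells of a type and less RNA per cell cannot be told apart.

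The receptor's DNA element consists of 2 arms, AGAACA and TGTTCT, with 3 bases of any kind between them, and it is its own reverse complement, so 1 search covers both strands. RefSeq promoters (GRCm38.p6, 250 bases before to 50 after the start) were matched for 9 of the 10 genes (all but Zbtb16), 17 promoters in all. With up to 2 mismatches in the 12 fixed bases, the element was found in 3 of these 17, from 2 genes, and in 1.84% of the 32851 promoters in the table. Sgk1 held the only member match without a mismatch, in the fifth of its 6 promoters, centred 182 bases before the start, and 3 of all 32851 promoters held such a match. An arm without a mismatch lay in 5 of the 17 promoters, from 3 genes (Sgk1, Tsc22d3 and Sult1a1), against 19% of all. The promoters with the closest match in Sgk1 and Sult1a1 are shown, since the 10 genes varied together between libraries, with capitals marking the 12 fixed positions of the element. The Sgk1 promoter spans chr10:21993640-21993939 on the plus strand and the Sult1a1 promoter chr7:126676369-126676668 on the minus strand.
Sgk1 promoter: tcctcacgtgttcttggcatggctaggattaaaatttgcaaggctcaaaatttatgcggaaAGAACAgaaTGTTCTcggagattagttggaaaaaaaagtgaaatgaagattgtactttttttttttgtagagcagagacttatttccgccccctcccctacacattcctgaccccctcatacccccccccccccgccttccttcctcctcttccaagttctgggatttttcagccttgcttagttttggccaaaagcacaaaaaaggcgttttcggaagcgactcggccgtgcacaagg
Sult1a1 promoter: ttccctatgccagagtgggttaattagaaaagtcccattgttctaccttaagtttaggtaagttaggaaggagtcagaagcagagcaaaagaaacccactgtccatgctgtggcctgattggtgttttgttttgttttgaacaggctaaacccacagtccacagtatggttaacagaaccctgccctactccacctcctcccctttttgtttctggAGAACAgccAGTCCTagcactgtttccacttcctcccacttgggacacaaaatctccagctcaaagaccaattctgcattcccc
A match of letters is a description and does not show binding.

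Depth ranged from 29092817 to 40189023 counts per library, and every member had at least 95 counts in every library. The tissue label was checked on 14 striatal projection neuron genes, whose mean level lay between 6.86 and 9.38 log2 CPM (counts scaled to the TMM-adjusted library size). In all, 6 libraries stood apart: 10-month Q20 F4 and M4 and Q92 F1 had that level 2.07, 1.68 and 1.30 log2 units below their group median, and 10-month Q20 F2, 6-month Q50 M3 and 6-month Q50-cohort wild type F2 had the pituitary hormone gene Pomc at 45.6, 20.0 and 16.7 CPM. F and M numbers name female and male libraries. None of the marker genes of 8 cell types or regions was at 0 in any 10-month library. Results are given with all libraries, and without these 6 where that changes a call.

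Compared per length, the 10 genes spanned a wide range of abundance. Over all 96 libraries Sgk1, a kinase that acts on ion channels and transporters, averaged 60.1 ± 24.7 FPKM (fragments scaled by gene length and library depth, SD, n = 96). Tsc22d3, which encodes the anti-inflammatory leucine zipper protein GILZ, averaged 43.0 ± 10.8 FPKM. Fkbp5, a co-chaperone that lowers the receptor's affinity for hormone, followed at 13 ± 1.61 FPKM. Nfkbia, the inhibitor that holds NF-kappaB in the cytoplasm, averaged 11.1 ± 2.59 FPKM, and Cdkn1a, the cyclin-dependent kinase inhibitor p21, 6.3 ± 1.36 FPKM. Sult1a1, a cytosolic sulfotransferase, and Pdk4, a kinase that restrains pyruvate entry into mitochondrial metabolism, were close to each other at 5.27 ± 1.16 and 5.14 ± 0.818 FPKM. The least abundant were Zbtb16, a zinc finger transcriptional repressor, at 2.59 ± 1.92 FPKM, Plin4, a lipid droplet coat protein, at 2.10 ± 1.51 FPKM, and Hif3a, an alpha subunit of the hypoxia-inducible factors, at 1.76 ± 0.741 FPKM. Neighbours in this order from Cdkn1a down to Pdk4, and from Zbtb16 to Hif3a, differed by less than 1 SD.

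**Figure D1:**
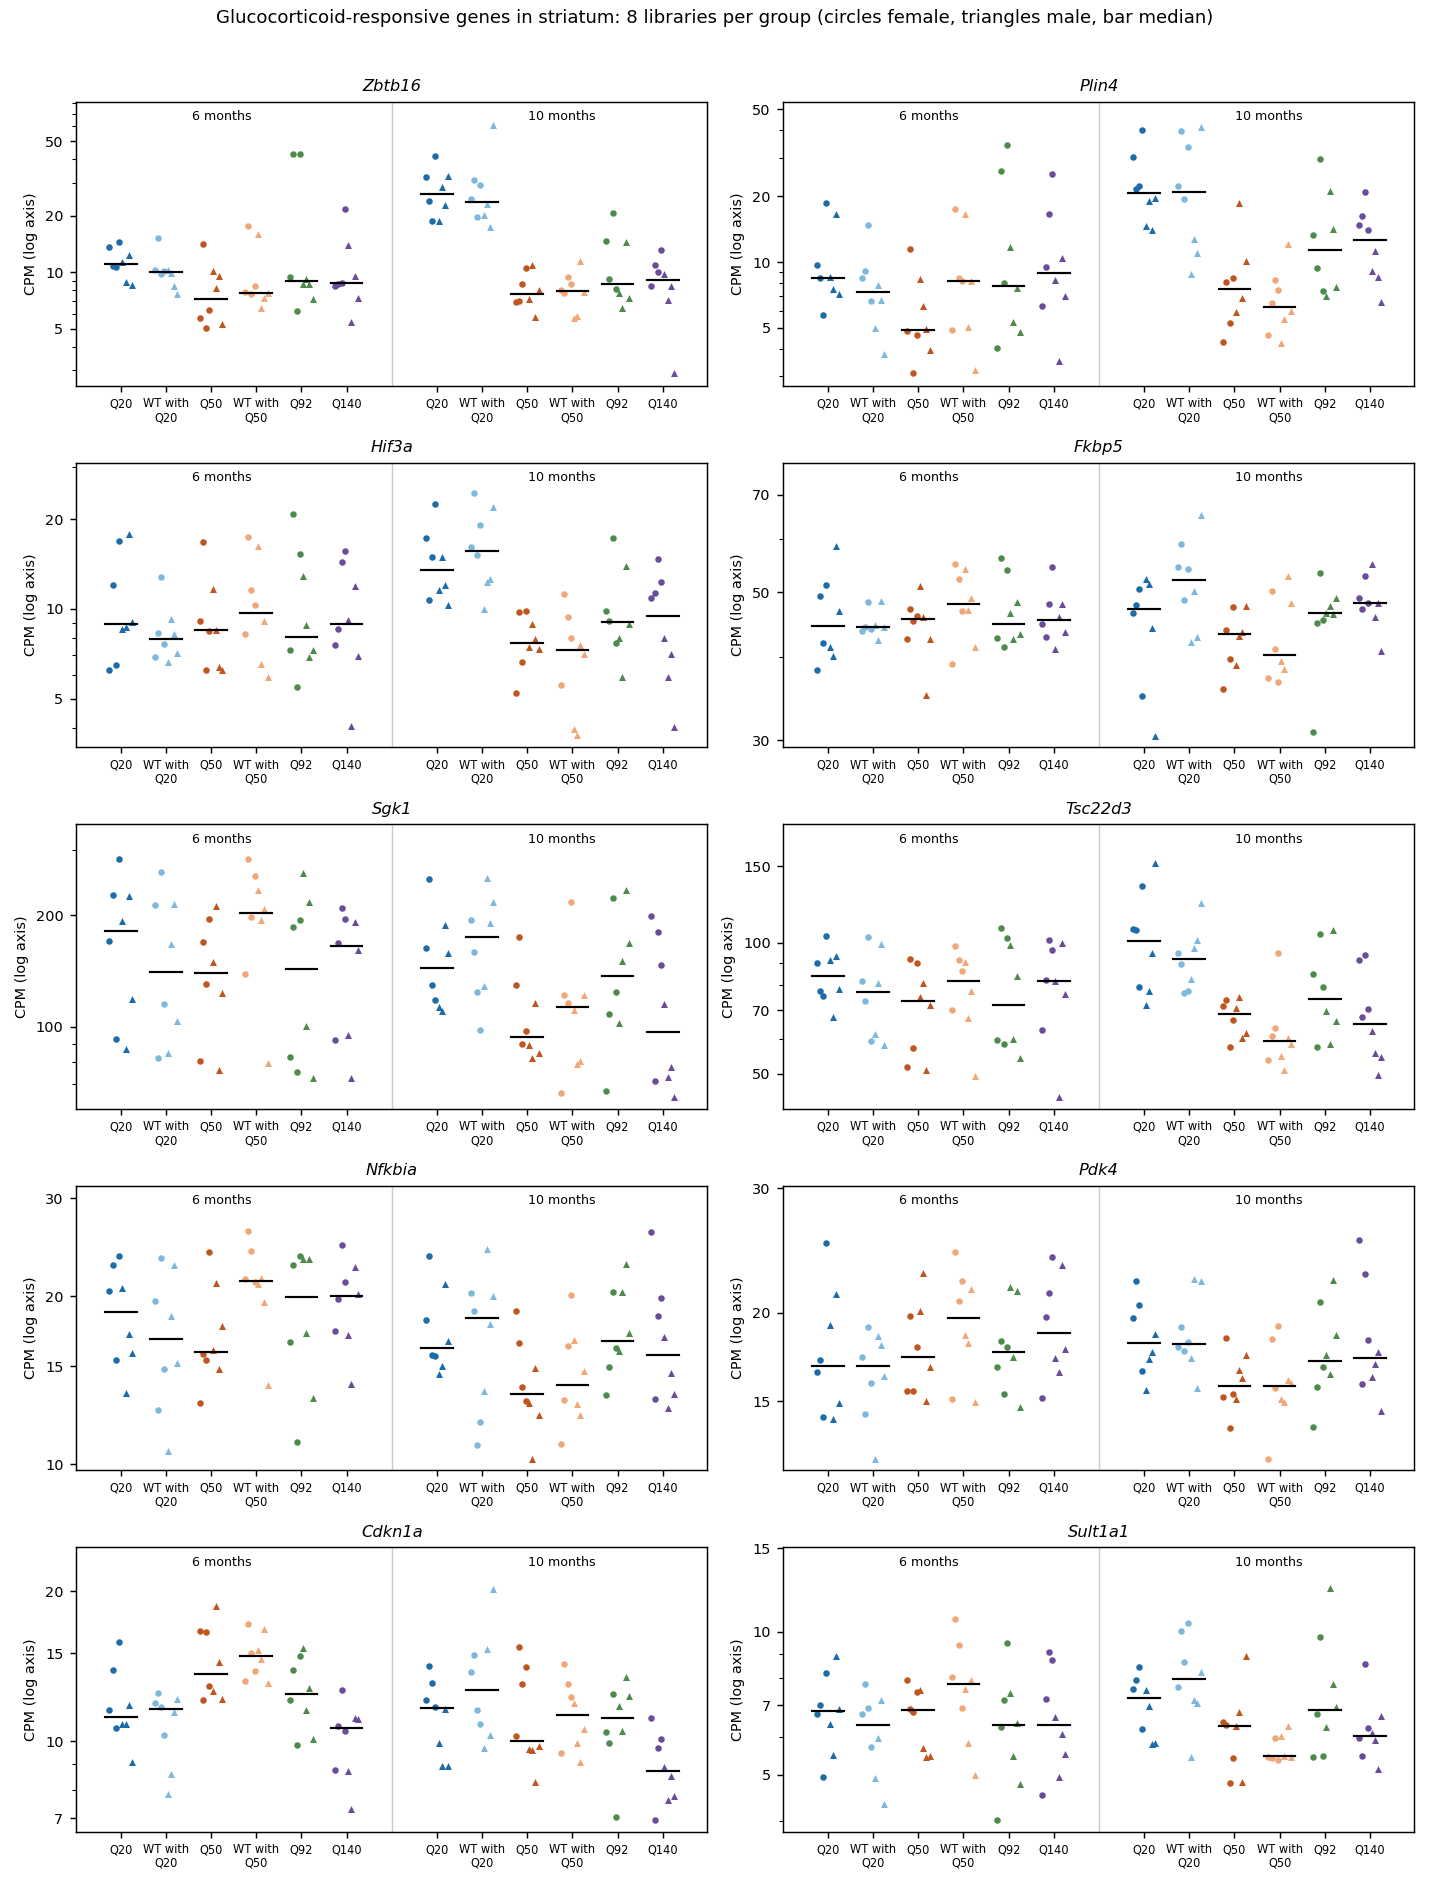
Level of each gene in CPM (log axis) in every library of the 12 groups, with 6 months left and 10 months right, circles for females, triangles for males and a bar at the group median. At 10 months the 16 Zbtb16 libraries of the Q20 cohort all sit above the 16 of the Q50 cohort. The wild types among them are the libraries the genes were selected on.

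Zbtb16 (chr9:48654297-48836222, minus strand, GRCm38) showed the widest separation between cohorts. At 10 months its lowest, median and highest levels were 18.7, 26.2 and 41.9 CPM in Q20 mice and 17.4, 23.8 and 60.8 CPM in their wild types. In the Q50 cohort the levels were 5.74, 7.63 and 10.98 CPM in knock-ins and 5.68, 7.92 and 11.5 CPM in wild types. All 16 libraries of the Q20 cohort were above all 16 of the Q50 cohort, whatever the genotype. The wild types among them are the libraries the genes were selected on. The share of all genes that separate 16 from 16 libraries was not counted. For 8 against 8 at this age it was 0.215% in the wild types and 0.266% in the knock-ins. The other 10-month groups had lowest, median and highest of 6.46, 8.69 and 20.8 CPM in Q92 and 2.89, 9.12 and 13.1 CPM in Q140. At 6 months the levels were 8.59, 11.1 and 14.6 CPM in Q20 and 7.64, 9.98 and 15.25 CPM in its wild types. In the Q50 cohort at 6 months they were 5.07, 7.24 and 14.1 CPM in knock-ins and 6.49, 7.76 and 17.8 CPM in wild types. The cohorts overlapped at that age, and no 6-month library of the Q20 cohort reached the lowest 10-month level of that cohort. The share of all genes whose ages lay apart in this way was not counted. For none of the other 9 genes did the 16 and 16 libraries of the cohorts stay apart at either age.

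Plin4 had group medians from 4.91 CPM in 6-month Q50 mice to 20.9 CPM in 10-month Q20-cohort wild types. Hif3a had its lowest and highest, 7.30 and 15.7 CPM, in the 10-month wild types of the Q50 and the Q20 cohort. Tsc22d3 ranged from 59.3 CPM in Q50-cohort wild types to 101 CPM in Q20 mice, both at 10 months. The lowest and highest medians of Fkbp5 were 40.3 and 52.2 CPM and those of Sult1a1 5.47 and 7.95 CPM, in each case in the 10-month wild types of the Q50 and the Q20 cohort. Sgk1, Nfkbia and Pdk4 all had their lowest median in 10-month Q50 mice and their highest in 6-month wild types of the Q50 cohort, at 93.5 and 203 CPM, 13.4 and 21.4 CPM, and 15.8 and 19.7 CPM. Cdkn1a had its lowest median, 8.70 CPM, in 10-month Q140 mice and its highest, 14.8 CPM, in 6-month wild types of the Q50 cohort. For each of these 9 genes the libraries of the group with the lowest median and of the group with the highest overlapped, apart from Cdkn1a. Each pair was picked by its medians, and the share of all genes without overlap in such pairs was not counted.

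Between the wild types, the comparison that selected the genes, all 10 were lower in the Q50 cohort at 10 months, with a median log2 difference of -0.55 against 0.0021 over all 17285 genes tested. The differences were -1.82 ± 0.24 for Zbtb16, -1.76 ± 0.32 for Plin4 and -1.24 ± 0.20 for Hif3a (log2, SE, 8 against 8). They were -0.60 ± 0.25 for Sgk1, -0.59 ± 0.15 for Tsc22d3 and -0.51 ± 0.14 for Sult1a1, and between -0.28 and -0.24 for the other 4. Zbtb16 was the single member whose 8 and 8 wild-type libraries did not overlap, and 0.215% of all genes did so. At 6 months the direction was the other way for most: 9 of the 10 were higher in the Q50 cohort, with a median of 0.27 against 0.0038 over all genes. Cdkn1a was furthest apart at that age, at 0.46 ± 0.11, with 7.84 to 12.5 CPM in the Q20 cohort and 13.1 to 17.2 CPM in the Q50 cohort, and was the single member without overlap (0.0566% of all genes). The change of the cohort difference from 6 to 10 months was below 0 for all 10, with a median of -0.76.

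Q50 was then tested against Q20 in the knock-in mice of the same cohorts. The difference uses none of the libraries that selected the genes, but the spread behind its SE and p was estimated over all 48 libraries of the age, the selecting wild types among them. At 10 months 4 of the 10 genes fell in Q50 (edgeR quasi-likelihood test, Benjamini-Hochberg adjusted p under 0.05), where 1.57% of all genes tested passed in either direction. Zbtb16 was 3.36-fold lower, a log2 difference of -1.75 ± 0.24 with adjusted p = 3.49e-05. The 3 others were Plin4, Hif3a and Tsc22d3, and all 10 genes were below 0, with a median of -0.42 against 0.0045 over all genes, of which 48.5% were below 0. Unadjusted p was under 0.05 for 7 of the 10. Fitted on the 16 knock-in libraries of the 2 groups alone (an alternative chosen after seeing the data), Zbtb16 at -1.75 ± 0.18 (adjusted p = 0.000214) and Hif3a at -0.84 ± 0.16 (adjusted p = 0.0358) passed. Plin4 at -1.41 ± 0.30 (adjusted p = 0.0599) and Tsc22d3 at -0.62 ± 0.14 (adjusted p = 0.0876) did not.

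Plin4 (chr17:56100591-56109803) had lowest, median and highest levels of 14.0, 20.6 and 40.2 CPM in Q20 and 4.32, 7.50 and 18.7 CPM in Q50 at 10 months. A single Q50 library, M2, reached into the Q20 range, and the log2 difference was -1.35 ± 0.32 with adjusted p = 0.0213. Hif3a (chr7:17031507-17062427) had 10.3, 13.5 and 22.4 CPM in Q20 and 5.22, 7.68 and 9.85 CPM in Q50. Its knock-in groups did not overlap, as was so for Zbtb16 and for 0.266% of all genes, and it differed by -0.83 ± 0.20 with adjusted p = 0.0239. Tsc22d3 (chrX:140539528-140600659) had 72.0, 101 and 153 CPM in Q20 and 57.5, 68.5 and 74.9 CPM in Q50. Its groups overlapped at the lowest Q20 values, and it differed by -0.62 ± 0.15 with adjusted p = 0.0217.

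The other members were closer to 0 and did not pass. Sgk1 differed by -0.52 ± 0.25 (adjusted p = 0.253), with 110.0 to 251 CPM in Q20 and 82.3 to 175 CPM in Q50. Nfkbia differed by -0.32 ± 0.16 and Pdk4 by -0.21 ± 0.10 (adjusted p = 0.249 and 0.24), and Sult1a1 by -0.17 ± 0.14 (adjusted p = 0.489). For Fkbp5, at 30.5 to 52.4 CPM in Q20 and 35.8 to 47.6 CPM in Q50, the difference was -0.08 with a 95% interval from -0.27 to 0.12. For Cdkn1a it was -0.01 with an interval from -0.27 to 0.25.

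**Figure D2:**
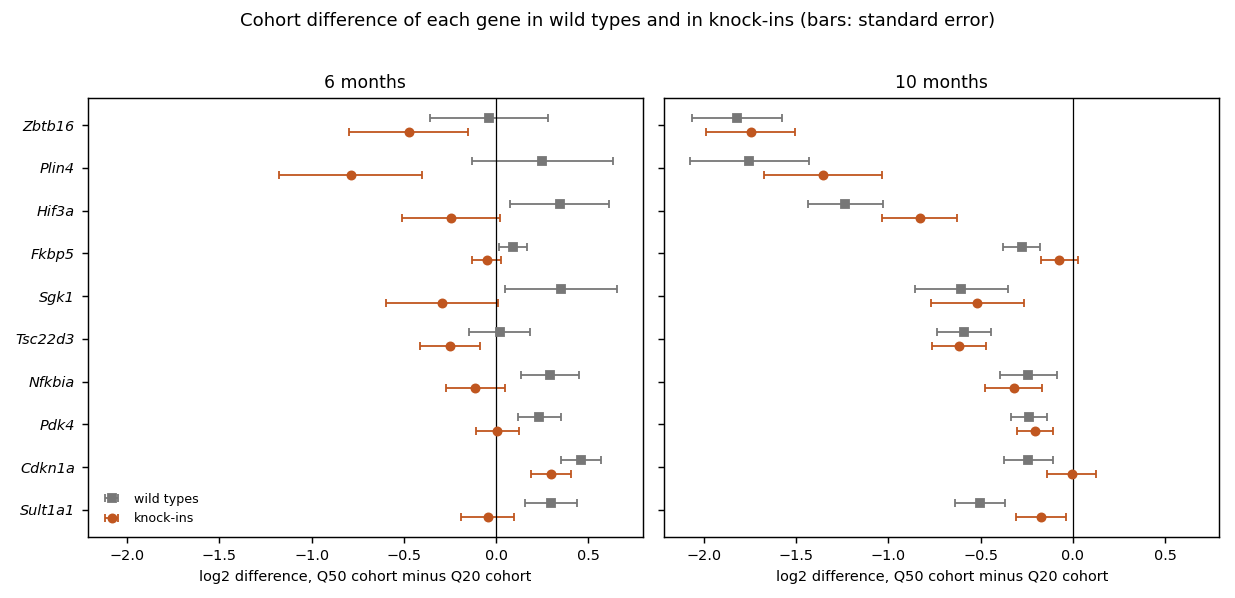
Log2 difference of the Q50 cohort minus the Q20 cohort for each gene, in wild types (squares, the comparison that selected the genes) and in knock-ins (circles), with standard errors, at 6 months (left) and 10 months (right). At 10 months all 10 genes lie below 0 in both, furthest for Zbtb16, at -1.82 in wild types and -1.75 in knock-ins.

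Of the 10-month Q20 libraries, 3 (F2, F4 and M4) are among those that stood apart, and the fall of Zbtb16 was the one that held without the 6 libraries (an alternative chosen after seeing the data), at -1.59 ± 0.27 with adjusted p = 0.00283. Single libraries decided the 3 other calls: without Q20 F4 adjusted p was over 0.05 for Plin4, Hif3a and Tsc22d3, without Q50 F3 for Plin4 and Hif3a, without Q50 F1 for Hif3a and without Q20 M4 for Tsc22d3, with highest values of 0.059, 0.0686 and 0.11. Zbtb16 passed in each of the 48 fits that left out 1 library. Without the 6 libraries Plin4 was at -1.22 ± 0.37 (adjusted p = 0.205), Hif3a at -0.87 ± 0.23 (adjusted p = 0.0993) and Tsc22d3 at -0.37 ± 0.15 (adjusted p = 0.457). Blood vessel markers moved with the comparison: 4 of 14 fell in Q50, and their mean level was 4.89 to 4.94 log2 CPM in Q20 and 4.70 to 4.88 log2 CPM in Q50, without overlap. In the wild types of the same age that level overlapped, at 4.78 to 4.88 log2 CPM in the Q20 cohort and 4.69 to 4.91 log2 CPM in the Q50 cohort. With the blood vessel level in the fit Zbtb16 remained the single call, at -1.78 ± 0.32 with adjusted p = 0.00162. As that level did not overlap between Q20 and Q50, this fit cannot tell its part from that of the group. Of 12 astrocyte markers 2 fell in Q50, and the level was 7.44 to 7.86 log2 CPM in Q20 and 7.37 to 7.54 log2 CPM in Q50. Thalamus markers, 10 in number, had a level of 3.97 to 6.76 log2 CPM in Q20 and 3.34 to 5.54 log2 CPM in Q50, with none past the threshold, and with that level in the fit Zbtb16 was again the single call, at -1.59 ± 0.24 with adjusted p = 0.00019. In 4 males against 4 males Zbtb16 was at -1.69 ± 0.39 with adjusted p = 0.211, and none of the 10 genes passed. The part of the astrocyte markers in the result was not tested.

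At 6 months none of the 10 genes passed in the same comparison of knock-ins, where 4.08% of all genes tested did, and 2 had an unadjusted p under 0.05. DESeq2 also called 0. Of the 10, 8 were below 0, with a median of -0.18, and no member was without overlap, against 0.158% of all genes. Plin4 was at -0.79 ± 0.39 (adjusted p = 0.24), with 5.71 to 18.5 CPM in Q20 and 3.10 to 11.5 CPM in Q50. Cdkn1a went the other way, at 0.30 ± 0.11 (adjusted p = 0.1), with 9.08 to 15.8 CPM in Q20 and 12.1 to 18.7 CPM in Q50, and it passed without the Q20 library F4, at 0.36 with adjusted p = 0.0417. Of 10 thalamus markers 6 fell in Q50 at 6 months and with their level in the fit none of the 10 genes passed. The direct test of whether the Q50 minus Q20 difference changed between ages called none of the 10 (0.00566% of all genes), with 1 unadjusted p under 0.05 and 0 calls by DESeq2. Zbtb16 had the furthest change in that test, at -1.28 ± 0.40 with adjusted p = 0.215, and all 10 were below 0 with a median of -0.27.

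Knock-in against wild type within the shared cohorts, averaged over Q20 and Q50, called none of the 10 genes at either age by edgeR or DESeq2, with 0 unadjusted p under 0.05. The wild types here are those the genes were selected on, so this test too draws on the selecting values. Of all genes, 0.0288% passed at 6 months and 0.0521% at 10 months. For Zbtb16 at 10 months the difference was -0.02 with a 95% interval from -0.35 to 0.31. For Plin4 it was 0.14, with an interval from -0.30 to 0.57, and for Fkbp5 -0.12, with an interval from -0.26 to 0.02.

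Mice with the longer CAG tracts were tested against the average of the wild-type groups of their age. These wild types are the libraries the genes were selected on, so the tests that follow draw on the selecting values and are no independent support. Cdkn1a (chr17:29090976-29100727) fell in Q140 at both ages. At 6 months it had lowest, median and highest levels of 7.33, 10.6 and 12.7 CPM in Q140, against 7.84, 11.6 and 12.5 CPM in wild types of the Q20 cohort and 13.1, 14.8 and 17.2 CPM in those of the Q50 cohort. The Q140 libraries thus overlapped the first wild-type group and lay below the second, and the log2 difference from their mean was -0.32 ± 0.10 with adjusted p = 0.0117. The share of all genes whose Q140 libraries lay apart from a wild-type group was not counted. At 10 months it had 6.95, 8.70 and 11.1 CPM in Q140, against 9.67, 12.7 and 20.2 CPM and 9.07, 11.3 and 14.3 CPM in the 2 wild-type groups. Q140 had the lowest median of the 6 groups and overlapped both wild-type groups, and the difference was -0.49 ± 0.12 with adjusted p = 0.00251.

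Zbtb16 also fell in Q140 at 10 months, by 0.80 on the log2 scale (SE 0.22, adjusted p = 0.00646). The levels place this fall against 1 of the 2 wild-type groups: Q140 libraries, at 2.89 to 13.1 CPM, were all below the Q20-cohort wild types at 17.4 to 60.8 CPM and overlapped the Q50-cohort wild types at 5.68 to 11.5 CPM. Here too the share of all genes lying apart in this way was not counted. Of 14 blood vessel markers 6 fell in Q140 at 10 months, and with their level in the fit Zbtb16 was at -0.82 ± 0.28 with adjusted p = 0.0622. In Q140, 1 of the 10 genes passed at 6 months and 2 at 10 months, where 23.7% and 19.2% of all genes tested passed. These shares are near or below the background and are no result about the 10 genes. Striatal projection neuron markers fell with the same comparison, 13 of 14 at 6 months and 10 of 14 at 10 months, as did 8 and 9 of 18 circadian clock genes. At 6 months 7 of 10 thalamus markers rose, with a median of 0.89, and 3 of 10 cortical projection neuron markers fell, with a median of -1.12. At 10 months 6 of 12 astrocyte and 5 of 12 oligodendrocyte markers fell. The part of the neuron and glial markers was not tested. The clock gene level used in fits was the mean log2 CPM of Per2, Dbp, Nr1d1, Ciart and sign-reversed Arntl, not that of all 18 genes. Per2 is also on the list of other glucocorticoid-responsive genes described below. With this clock gene level in the fit Cdkn1a at 6 months was at -0.19 ± 0.10 with adjusted p = 0.197.

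In Q92 none of the 10 passed at 6 months (5.44% of all genes) or at 10 months (0.422%), with 1 unadjusted p under 0.05 at each age, both Zbtb16, and 0 calls by DESeq2. The 6-month value of Zbtb16, 0.67 ± 0.27 with adjusted p = 0.127, rested on 2 of the 8 libraries. Female libraries F2 and F4 had 42.5 and 42.9 CPM, and the 6 others 6.22 to 9.48 CPM. The same 2 libraries were above the 6 others for 5 of the 10 genes (Zbtb16, Plin4, Hif3a, Fkbp5 and Tsc22d3), with Plin4 at 26.2 and 34.2 CPM against 4.04 to 11.7 CPM. These libraries were picked on Zbtb16 and the genes vary together, so the 5 are not separate results. The share of all genes with these 2 libraries above the 6 others was not counted. For Sgk1 they were at 186 and 194 CPM, inside the 72.7 to 260 CPM of the others.

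Averaged over groups, males had lower values than females for most of the genes. The genes vary together between libraries, so these are not separate results. Of all genes, 49.4% were below 0 in this comparison at each age. At 6 months all 10 log2 differences of male minus female were below 0, with a median of -0.15, 3 unadjusted p under 0.05 and none past the threshold, against 2.30% of all genes. At 10 months 9 of the 10 were below 0 and Hif3a fell in males, by 0.44 (SE 0.12, adjusted p = 0.0351), where 1.63% of all genes passed. The call was lost when any 1 of 8 libraries was left out (Q20 F4, Q50 F2, Q92 F3, Q92 M2, Q140 M2, F2 and M1 of the Q20-cohort wild types, F3 of the Q50-cohort wild types), with a highest adjusted p of 0.0592. The Hif3a median was lower in males than in females in 6 of 6 groups at each age. For Pdk4 this was so in 2 of 6 groups at 6 months and 3 of 6 at 10 months. At 10 months it was so in 2 of 6 groups for Fkbp5 and 3 of 6 for Sult1a1. In every other case the male median was lower in 4 or more of 6 groups. In Q140 at 10 months the 4 females had 10.9 to 14.7 CPM and the 4 males 4.02 to 7.98 CPM, without overlap. In Q50 at that age they overlapped, at 5.22 to 9.85 and 7.32 to 8.87 CPM. The share of all genes whose sexes did not overlap within a group was not counted, so these ranges are a description.

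Between ages, 10 against 6 months averaged over the 4 knock-in groups, none of the 10 genes passed, where 16.1% of all genes did, and 2 had an unadjusted p under 0.05, Nfkbia at -0.20 ± 0.10 and Cdkn1a at -0.18 ± 0.08. DESeq2 gave 0 calls as well. For Zbtb16 the average difference was 0.01 with a 95% interval from -0.34 to 0.36. This average joins unlike groups. Both numbers in the library names fall in separate ranges at 6 and 10 months, so age and library series cannot be told apart. From 6 to 10 months the Zbtb16 mean went from 11.35 to 27.4 CPM in Q20 and from 8.05 to 8.15 CPM in Q50. It went from 16.9 to 11.1 CPM in Q92 and from 10.5 to 8.84 CPM in Q140. The change within each group was not tested.

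Libraries of 1 group and sex differed widely in these genes. The SD of log2 CPM between such libraries was 0.69 for Plin4, 0.59 for Sgk1, 0.55 for Zbtb16 and 0.49 for Hif3a, above 98.3% or more of the 13490 genes with a mean log2 CPM of at least 1, whose median SD was 0.13. It was 0.32 for Tsc22d3 and Nfkbia, 0.28 for Sult1a1, 0.24 for Cdkn1a, 0.22 for Pdk4 and 0.19 for Fkbp5, which was above 76.9% of these genes. Plin4 spanned the widest range within 1 group, 8.45-fold from 4.04 to 34.2 CPM in Q92 at 6 months. Sgk1 (chr10:21882184-21999903) had 79.9, 203 and 284 CPM as its lowest, median and highest in Q50-cohort wild types at 6 months, a 3.55-fold range.

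The genes varied together between libraries of 1 group and sex. All 45 pairs had a Pearson correlation above 0 across the 96 libraries (a description across libraries that share depth and tissue composition), with a median r of 0.51. Sgk1 and Nfkbia were the closest pair at r = 0.88, followed by Sgk1 and Pdk4 at 0.83 and Plin4 and Hif3a at 0.81. Zbtb16 correlated with Plin4 at 0.76 and with Hif3a at 0.74, and with Sgk1 and Nfkbia at 0.29 and 0.23. Fkbp5 and Tsc22d3 had the lowest r, 0.19, with 0.60 at 6 months and -0.20 at 10 months.

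**Figure D3:**
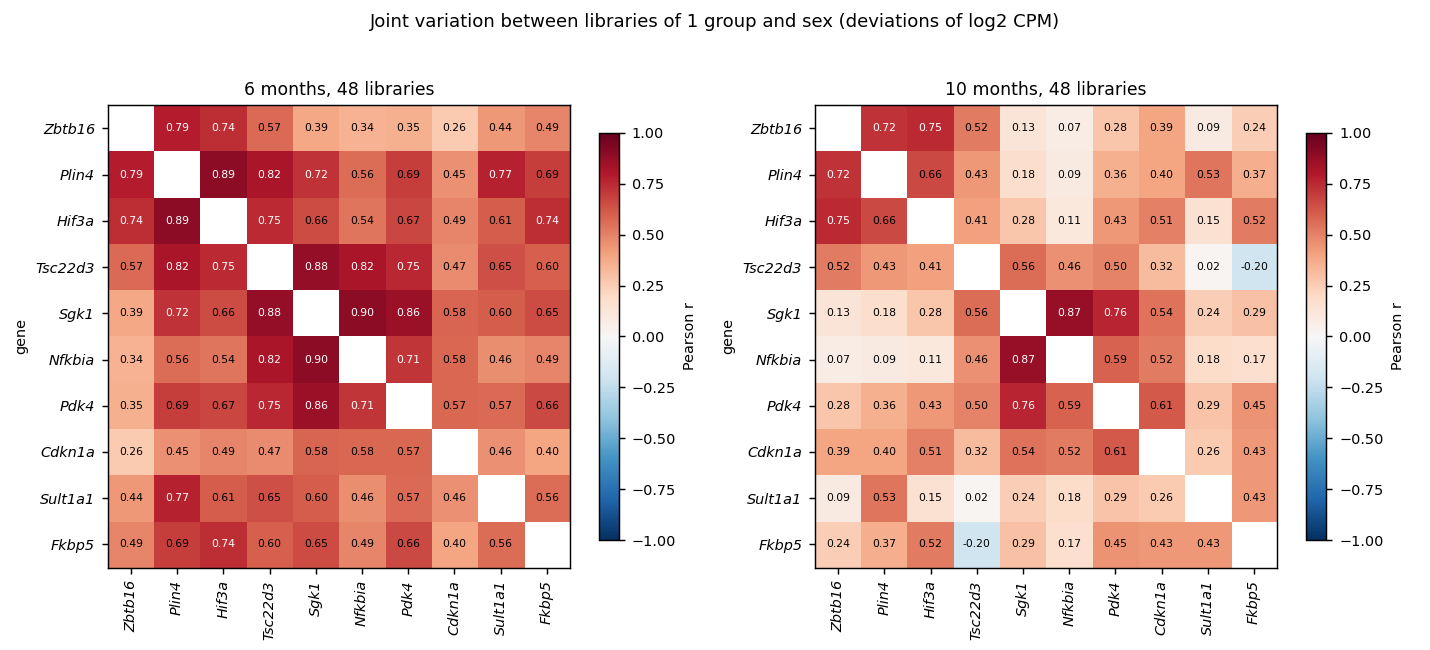
Pearson correlation of the deviations of log2 CPM from the mean of group and sex for each pair of genes, over 48 libraries of 6 months (left) and 48 of 10 months (right). At 10 months Zbtb16, Plin4 and Hif3a correlate closely with each other, as do Sgk1, Nfkbia and Pdk4, with lower values between these sets. At 6 months the values between the sets are higher, and Tsc22d3 is close to genes of both, at 0.82 with Plin4 and 0.88 with Sgk1.

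A joint level was formed as the mean over the 10 genes of the deviation from the mean of the age, in SD units. At 10 months its lowest, median and highest values were 0.14, 0.66 and 1.26 in Q20 and -0.20, 0.98 and 2.26 in its wild types. They were -0.97, -0.62 and 0.05 in Q50 and -1.51, -0.58 and -0.05 in its wild types. The knock-in groups did not overlap, and the wild-type groups did. The wild-type difference is what the genes were selected on. No joint level of other gene sets was formed for comparison. At 6 months the values were -0.79, 0.03 and 1.43 in Q20 and -1.33, -0.27 and 0.69 in its wild types. They were -0.96, -0.25 and 0.49 in Q50 and -1.14, 0.50 and 1.72 in its wild types, and both pairs of groups overlapped at that age. At 10 months Q92 and Q140 spread across both, from -0.69 to 1.39 and from -1.56 to 0.77. In 11 of the 96 libraries all 10 genes were above the mean of their age, and in 12 all were at or below it.

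**Figure D4:**
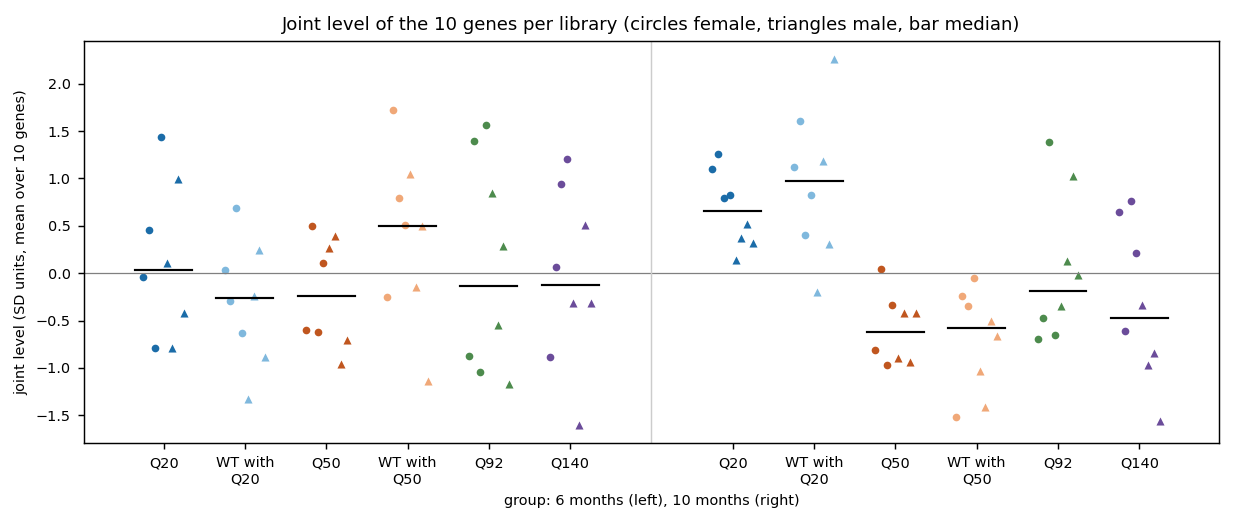
Mean over the 10 genes of the deviation of log2 CPM from the mean of the age, in SD units, for each library of the 12 groups (circles female, triangles male, bar median). At 10 months the Q20 mice lie between 0.14 and 1.26 and the Q50 mice between -0.97 and 0.05. The wild types are the libraries the genes were selected on.

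The receptor and the genes that supply or handle its hormone were measured from a list of 20, of which 18 passed the filter. Nr3c1, the glucocorticoid receptor, stayed within a narrow range, with group means from 105 to 119 CPM and single libraries from 85.9 to 139 CPM. Between Q50 and Q20 none of the 18 passed at 6 months, and at 10 months the single call was Pomc, the precursor of the pituitary hormone ACTH, at -3.16 ± 0.79 with adjusted p = 0.0305. That value came from 1 Q20 library, F2, at 45.6 CPM beside a group median of 0.653 CPM. Without the 6 libraries none of the 18 passed, with 1 unadjusted p under 0.05. In Q140, 3 rose and 1 fell at 6 months and 4 rose and 3 fell at 10 months, where 23.7% and 19.2% of all genes passed, and with the blood vessel level in the fit 0 rose and 1 fell at 10 months. Nr3c2, the mineralocorticoid receptor that also binds corticosterone, rose by 0.16 ± 0.04 at 6 months (adjusted p = 0.00600) and by 0.20 ± 0.05 at 10 months (adjusted p = 0.00264). With the blood vessel level in the fit its 10-month value was 0.19 ± 0.07 (adjusted p = 0.0659), a difference of about the same size with a larger SE. Its medians in Q140 were 62.7 and 67.3 CPM against 54.7 to 57.2 CPM in the 4 wild-type groups. Crh, the releasing hormone that starts the stress axis, fell by 0.996 on the log2 scale at 6 months (SE 0.28, adjusted p = 0.00748), from group means of at most 1.48 CPM. The cortical and thalamus markers named above moved in the same comparison, and with the thalamus level in the fit Crh was at -1.18 ± 0.30 (adjusted p = 0.00361). The part of the cortical markers was not tested.

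Other glucocorticoid-responsive genes were read from a list of 50, of which 49 passed the filter. The list was chosen with earlier results of these data known, so its counts are no independent support. Between Q50 and Q20 at 10 months 9 of the 49 fell and 0 rose, with a median of -0.12, against 1.57% of all genes called in either direction. The 4 with the smallest p were Glul, glutamine synthetase, at -0.23 ± 0.04 (adjusted p = 0.00155), Slc2a1, the glucose transporter GLUT1, at -0.39 ± 0.08 (adjusted p = 0.00834), Gjb6, the astrocyte gap junction protein connexin 30, at -0.54 ± 0.12 (adjusted p = 0.0125), and Mfsd2a, a lipid transporter of brain vessels, at -0.35 ± 0.08 (adjusted p = 0.0221). Slc2a1 had 99.6 to 127 CPM in Q20 and 83.3 to 92.4 CPM in Q50, without overlap, as was so for 0.266% of all genes. None of the 49 passed without the 6 libraries that stood apart, with 15 unadjusted p under 0.05 and a median of -0.17, and adjusted p was then 0.0856 for Glul and 0.114 for Slc2a1 (edgeR, chosen after seeing the data). With the blood vessel level in the fit none passed either, with 14 unadjusted p under 0.05 and a median of -0.11. The limit given above for that level in this comparison holds here too. Slc2a1 was then at -0.36 ± 0.10 and Gjb6 at -0.47 ± 0.15, close to their values without that level and with larger SE, and Glul was at -0.16 ± 0.05 and Mfsd2a at -0.22 ± 0.10. In the same comparison 4 of 14 blood vessel and 2 of 12 astrocyte markers fell, and none of either did without the 6 libraries. Gjb6 is on the astrocyte list too. At 6 months none of the 49 passed, and 3 had an unadjusted p under 0.05. Between ages 9 of the 49 fell in knock-ins at 10 months and 4 did without the 6 libraries, where 16.1% of all genes passed with all libraries, so the share is near the background.

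The genes most alike to the 10 were sought among 13481 others by their correlation with the members' score, the mean deviation within group and sex, over the 96 libraries. Of these, 2.19% had r above 0.5 and 30 had r above 0.7. Slc2a1 was closest at r = 0.90, followed by Map3k6, a stress-activated kinase, at 0.89, Gpt2, a mitochondrial alanine aminotransferase, at 0.85, and Klf15, a Kruppel-like transcription factor, at 0.82. The next were Polr3e, Adipor2, Rrp8, Arrdc2, Fam83d and Plekhf1, from 0.82 down to 0.79. Of these 10, 4 were on the list of other glucocorticoid-responsive genes. That list held 49 genes past the filter and was chosen with earlier results of these data known, so the 4 are a description. For each of the 10, r was lower at 10 months than at 6 months. At 6 and 10 months it was 0.96 and 0.79 for Slc2a1 and 0.92 and 0.82 for Map3k6. For Gpt2 it was 0.94 and 0.67, and for Klf15 0.90 and 0.66. The lowest correlations were those of Tnfsf10 at -0.76, Cldn5, a tight junction protein of vessel cells, at -0.74 and Cd180 at -0.70.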

How the data were processed

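Striatal mRNA was measured in 96 libraries. The authors deposited 1 table of expected counts per Ensembl gene (27.7% of non-zero values were not whole within 0.001) and 1 of FPKM, fragments scaled by gene length and library depth, for the same libraries. CASAVA 1.8.2 is named in the submitters' processing notes, while for aligner, quantifier and build the sources used here name none. Gene positions are those of GENCODE M21 on GRCm38 and promoters those of RefSeq on GRCm38.p6.

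The expected counts, rounded to whole numbers, entered the edgeR 4.0.16 quasi-likelihood test (R 4.3.3) after TMM scaling and filterByExpr, with group and sex as terms, over the 48 libraries of an age or, for ages, all 96. Tests were two-sided with Benjamini-Hochberg adjustment over all genes and a threshold of 0.05, and differences carry a standard error or a 95% interval. Counting depth was 29092817 to 40189023 per library. The script was tested on simulated data. Alternatives used DESeq2 1.42.0, limma 3.58.1 on log2(FPKM + 1) and log2(FPKM + 0.1), other filters, covariates and subsets. The labels do not state that libraries of a group came from separate animals, so p-values measure the spread between these samples.

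The 10 genes and all lists were chosen with earlier results of these data known. Named were the 10 genes, at most 4 genes per list and comparison with the smallest p past the threshold, and the 10 most and 3 least alike genes. For a few others, Nr3c1 among them, values were added after they had been seen.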

Additional observations from a re-analysis of the deposited data

Results flagged for a closer look

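Of 120 sets of 8 libraries (10 genes in 12 groups), 8 held a library whose gap to the nearest other one was large for the range of its group, and chance gives about 1 in 20 such sets. In the wild types of the Q50 cohort at 10 months, F4 was high for Sgk1 at 217.2 CPM, beside 66 to 122 CPM in the others, and for Tsc22d3 at 94.47 CPM, beside 51.0 to 63.8 CPM. Zbtb16 was at 60.82 CPM in M4 of the Q20-cohort wild types at 10 months, beside 17.4 to 31.2 CPM. In the same wild types at 6 months Zbtb16 was at 15.25 CPM in F2, beside 7.64 to 10.3 CPM, and Hif3a at 12.79 CPM in F3, beside 6.63 to 9.22 CPM. Plin4 was at 18.65 CPM in Q50 M2 at 10 months, beside 4.32 to 10.1 CPM. Sult1a1 was at 8.578 CPM in Q140 F3 at 10 months, beside 5.13 to 6.64 CPM. Fkbp5 was the single gene with a low library, at 30.85 CPM in Q92 F1 at 10 months, beside 44.9 to 53.5 CPM, and that library is 1 of the 6 that stood apart by tissue markers.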

How the results depend on the processing

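For Q50 against Q20 at 10 months, the count of the 10 genes that passed was 4, and it was 1 with the blood vessel level or the thalamus level in the fit, 2 in females only, 0 in males only, 2 by limma on log2(FPKM + 1) without a filter, and, as alternatives chosen after seeing the data, 1 without the libraries that stood apart and 2 on the Q20 and Q50 knock-ins only. Leaving out 1 library gave 1 to 4. Plin4 was lost with the clock gene level (adjusted p = 0.101) and Hif3a by limma on log2(FPKM + 0.1), at -0.71 with adjusted p = 0.0545. At 6 months the count of 0 became 1 (Cdkn1a) with the clock gene level in the fit, and leaving out 1 library gave 0 to 1. For Q140 at 10 months the count of 2 became 1 with the blood vessel level and 0 in females only, and in males only Zbtb16 was lost (adjusted p = 0.0563) while Sgk1 passed at -0.76 (adjusted p = 0.0393). For Q140 at 6 months the count of 1 became 2 with the clock gene level (Plin4 at 0.91 with adjusted p = 0.0435 and Pdk4 at 0.33 with adjusted p = 0.0105, without Cdkn1a) and 0 in females only or males only. The single call for sex at 10 months became 0 with the blood vessel level, with the L token of the library names as a covariate, by limma on log2(FPKM + 1) without a filter and without a low-count filter, and leaving out 1 library gave 0 to 1. Between ages the count of 0 became 1 with the blood vessel level (Nfkbia) and 1 with the clock gene level (Hif3a). Single-sex subsets have fewer samples, and the cause of the other shifts was not tested. No called value changed sign under any alternative run. The replicate block left the counts at 4 and 0 for Q50 against Q20 and at 2 and 1 for Q140 (10 and 6 months), and changed no other count. Sex was a term of the fit with the block but was not tested in it. Same-numbered libraries correlated from -0.52 to 0.55, so the numbers do not pair them. Over all genes the calls for Q50 against Q20 at 10 months were 272, with 3318 under the token covariate, 158 with the block, 20 without the libraries that stood apart, 64 on the Q20 and Q50 knock-ins only and 410 by DESeq2. The token was unevenly spread over the Q20 and Q50 libraries of that age. At 6 months 255 were higher and 453 lower, with 12 in all under the thalamus covariate, 62 on the Q20 and Q50 knock-ins only and 1063 by DESeq2. For Q92 at 6 months they were 943, with 34 under the thalamus covariate, and for 10 against 6 months 2849, with 84 under the token covariate and 137 with the block. The 4114 calls for Q140 at 6 months split into 2036 higher and 2078 lower, and by limma on log2(FPKM + 1) into 3344 and 1414.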

Other observations

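Circadian clock genes, a list of 18 that shares Per1 and Per2 with the list of other glucocorticoid-responsive genes, had a mean level that correlated with the members' score at r = 0.62 over the 96 libraries (a description). All lists were chosen with earlier results of these data known, so the counts below are no independent support. The list of other glucocorticoid-responsive genes stood at 0.82, blood vessel markers at -0.24 and the receptor and hormone list at 0.10. Between Q50 and Q20, 6 of the 18 clock genes fell at 6 months, where 4.08% of all genes passed, and 2 fell without the libraries that stood apart (chosen after seeing the data). Ciart was then at -0.40 ± 0.11 (adjusted p = 0.0547), beside -0.42 ± 0.11 with all libraries. In the same comparison 6 of 10 thalamus markers fell, with a median of -1.24, and with their level in the fit none of the 18 passed by edgeR, with 11 unadjusted p under 0.05, while 12 of all genes did. Ciart was then at -0.49 ± 0.12 (adjusted p = 0.0994). Among the 6 was the repressor Bhlhe40 at -0.35 ± 0.08 (edgeR, adjusted p = 0.0147), and at -0.28 ± 0.08 (adjusted p = 0.172) with the thalamus level in the fit. None of the 18 passed at 10 months, with 7 unadjusted p under 0.05. In males 9 fell and 1 rose at 6 months, where 2.30% of all genes passed, led by Dbp, a clock output transcription factor, at -0.34 ± 0.04 (adjusted p = 7.75e-09), and at 10 months, with 1.63% of all genes past the threshold, 1 rose and none fell. Between 6 and 10 months 11 fell in knock-ins, and 6 did without the libraries that stood apart, where 16.1% of all genes passed with all libraries, with Ciart at -0.50 ± 0.08 (adjusted p = 1.26e-06). Activity-regulated genes, a list of 15, had 0 calls between Q50 and Q20 at both ages and 5 that fell in Q140 at 6 months, where 23.7% of all genes passed.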
